A study of Mus musculus with 6 samples.

Results

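Autophagy and lysosome genes were examined in haematopoietic stem cells (HSCs) of lean and obese mice. The genes were taken by symbol, as the rows for the numbered ATG genes, the V0 and V1 subunits of the vacuolar ATPase, the LAMP proteins, the lettered cathepsins without the granule protease gene Ctsg, and 10 genes given by name (Ulk1, Becn1, Sqstm1, Map1lc3a, Map1lc3b, Gabarap, Gabarapl1, Gabarapl2, Tfeb and Tfe3). The rule found 72 symbols among the 23955 of the deposited table. Of these, 57 had a mean of at least 1 TPM over all libraries and entered the test, 12 were listed at 0 in every library, and 3 had a mean between 0 and 1 TPM (Atp6v0e2, Atp6v0d2 and Atg9b).

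The sorted cells were the CD150+ and CD48- fraction of the marrow LSK population (lineage-negative, positive for Sca-1 and c-Kit) of C57BL/6 mice at 4 months of age. One group was db/db, homozygous for a mutation of the leptin receptor and obese, and the other was WT littermates. The labels name no treatment for either group. Each of 3 independent experiments gave 1 library per genotype, from 20000 sorted cells each, so n = 3 per group, and the labels do not say how many mice went into a library. The db mutation is carried by every cell of the animal, so the comparison is between whole animals and not of a change made in HSCs.

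Values were TPM, transcript levels that account for transcript length and add up to the same total in every library, so levels of different genes can be set side by side. TPM keeps no read depth, so the sequencing depth is unknown and no counting error or detection floor is given. All 12 HSC markers listed for checking, among them Kit, Ly6a, Slamf1, Procr and Hlf, passed the filter on low values, and their summed level was 1348 to 2314 TPM in WT, against 1953 to 2241 TPM in db/db. The markers of sorted-out cells were not uniform. For 13 granulocyte genes the summed level reached 4866 TPM in WT replicate 1 but 549 and 482 TPM in the other WT libraries, and db/db replicates 1, 2 and 3 had 4282, 2323 and 1706 TPM. In these bulk libraries fewer cells of a type and less RNA per cell cannot be told apart.

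Macroautophagy encloses cytoplasm in a double membrane, the autophagosome, and delivers it to the lysosome for breakdown. A kinase complex around ULK1 starts the process, a lipid kinase complex with Beclin 1 marks the membrane, and conjugation enzymes attach ATG8 proteins of the LC3 and GABARAP type to it. The lysosome is acidified by the vacuolar ATPase, lined by LAMP proteins and filled with cathepsin proteases. HSCs are known to need autophagy to limit their mitochondria and keep their quiescence.

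In db/db against WT HSCs, no autophagy or lysosome gene passed the test. In limma with Benjamini-Hochberg adjustment over 11931 genes, 0 of 57 members passed as higher and 0 as lower at an adjusted p under 0.05, against 0.0335% of all tested genes higher and 0% lower. The smallest adjusted p of a member was 0.607, and the smallest over all alternative settings was 0.458. At an unadjusted p under 0.05, 1 member was higher (Ctse) and 2 were lower (Map1lc3a and Atp6v0c), which is 1.75% and 3.51% of the members, against 4.1% and 1.25% of all tested genes. The libraries of the groups did not overlap for 5 members with db/db higher and 1 with db/db lower (8.77% and 1.75%), against 7.85% and 2.32% of all tested genes. Both shares are near that background. With median-of-ratios scaling the unadjusted p was under 0.05 for 1 member higher and 3 lower, against 2.49% and 2.98% of all genes, and groups did not overlap for 2 higher and 3 lower, against 5.67% and 4.75%.

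The median log2 fold change of the 57 members was 0.15, and that of all tested genes was 0.18. TPM values were thus shifted upward in db/db for genes in general. Scaling by the median of ratios, which removes such a shift by construction, left 0.00. Relative to all genes the members' median was -0.028. Of the 57, 24 exceeded the median of all genes and 33 did not. The quartiles of the members were -0.06 and 0.31, and those of all genes -0.08 and 0.42. Within experiments 1, 2 and 3 the members' median differences were -0.03, 0.36 and 0.01, beside 0.00, 0.45 and 0.09 for all genes. Together the 72 rows made up 0.310% to 0.404% of all TPM in a WT library and 0.370% to 0.408% in a db/db library.

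**Figure D1:**
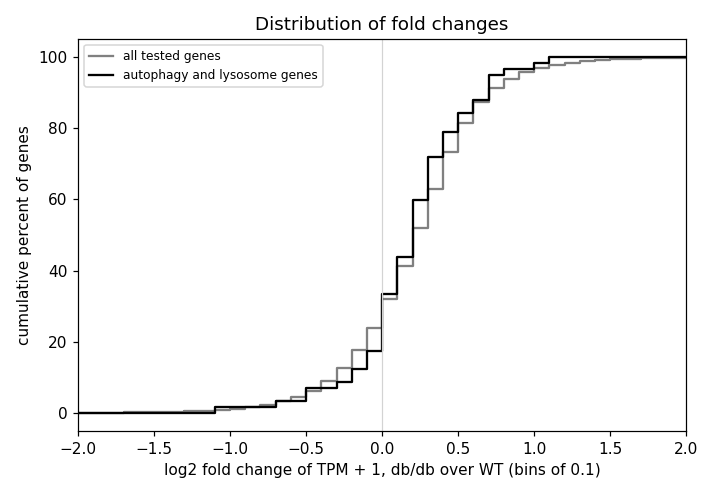
The cumulative percent of genes (vertical axis) is plotted against the log2 fold change of TPM + 1 in db/db over WT, in bins of 0.1, for the 57 tested autophagy and lysosome genes (black) and all 11931 tested genes (grey). The curves lie close together, with medians of 0.15 and 0.18.

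The standard error of a member's log2 fold change ran from 0.22 to 0.61, with a median of 0.35, against 0.41 for all tested genes. For 32 of 57 members the 95% interval lay wholly between -1 and 1, so it held no change of 2-fold or more on that scale in either direction. The interval reached 1 or more for 20 members and -1 or less for 6. Of all tested genes, 31.9% had an interval within these bounds, against 56.1% of the members, whose median level of 26.5 TPM was above the 15.8 TPM of all tested genes.

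**Figure D2:**
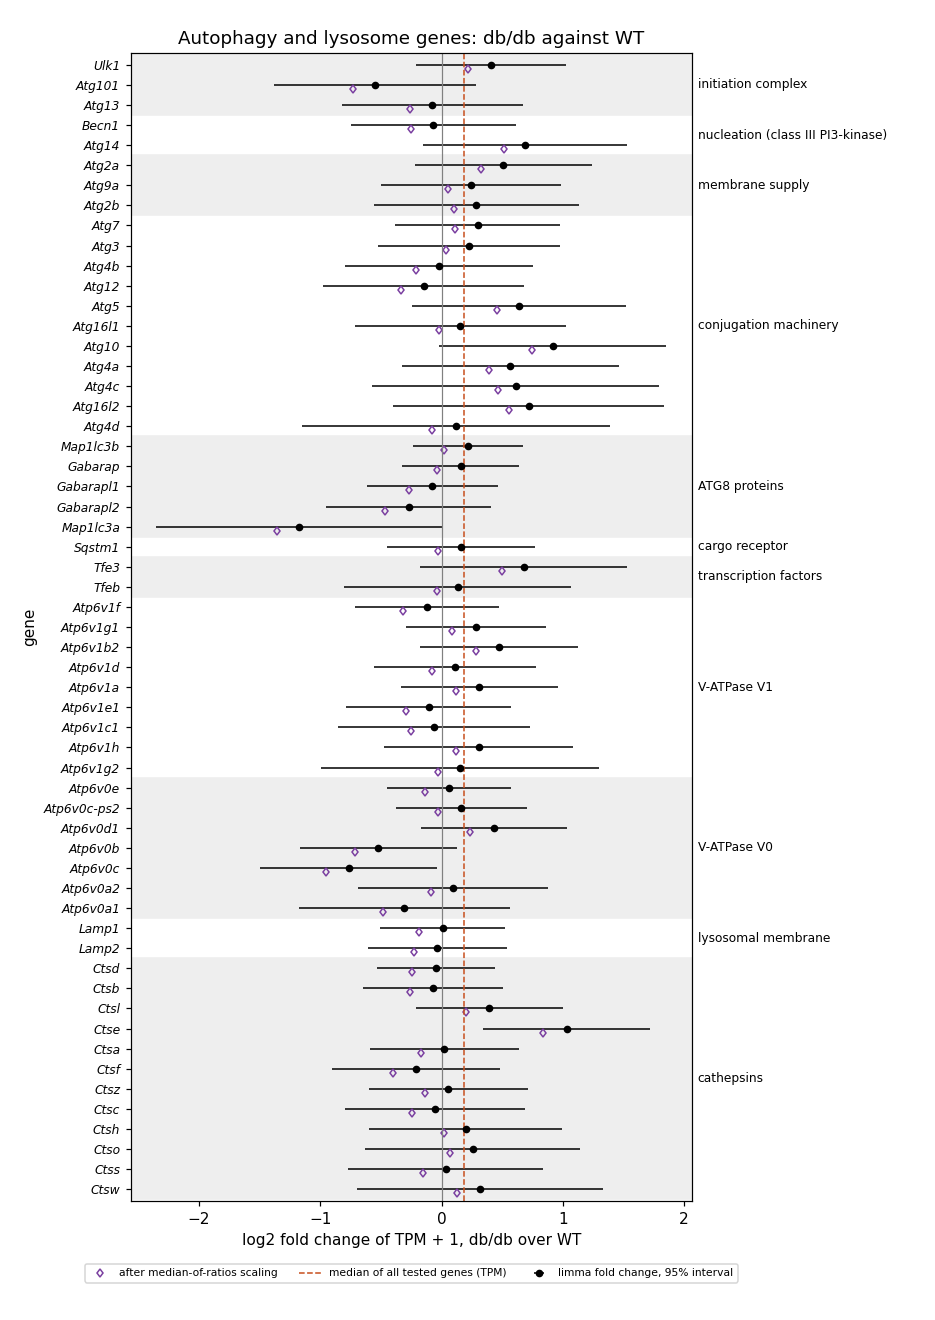
The log2 fold change of TPM + 1 in db/db over WT is drawn for each of the 57 tested members, ordered by role, with its 95% interval from limma (black) and its value after median-of-ratios scaling (open diamonds). The dashed line is the median of all tested genes at 0.18, and the intervals of all members other than Ctse, Atp6v0c and Map1lc3a include 0.

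The regulators come first. TFEB and TFE3 are related transcription factors that enter the nucleus when mTORC1 is inactive and switch on lysosome and autophagy genes. For Tfeb, WT replicates 1, 2 and 3 had 7.76, 8.55 and 5.48 TPM, against 12.98, 6.32 and 5.98 TPM in db/db. Values of 3 libraries are given in this order throughout. The high value of db/db replicate 1 stood alone and the groups overlapped (log2 fold change 0.13, SE 0.45). Tfe3 was at 10.01, 6.40 and 14.93 TPM in WT and at 14.13, 14.36 and 21.73 TPM in db/db. It was higher in db/db in each experiment, by 0.46, 1.05 and 0.51 on the log2 scale, but WT replicate 3 lay above db/db replicates 1 and 2. The log2 fold change of 0.68 (SE 0.41) was short of the threshold (limma adjusted p = 0.919). Neither factor was abundant, with Tfeb at the percentile 30.2 and Tfe3 at 45.4 of mean TPM among tested genes.

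TFEB and TFE3 bind an E-box, CACGTG, most strongly where it is flanked as TCACGTGA. RefSeq promoter windows (build GRCm38.p6, 250 bases before to 50 after a transcription start) were searched for both words. Each word equals its own reverse complement, so a match lies on both strands, and every TCACGTGA holds a CACGTG. Of the 72 members, 57 had a window in the table. The core word was found for 13 of these, or 22.8%, and in 8.09% of the 27025 genes with a window. The flanked word was found for 6, or 10.5%, and in 1.13% of all genes. These are matches of letters in a window and no evidence that a factor binds there.

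The windows of the 6 genes with the flanked word are shown because TFEB and TFE3 are known to bind this word in lysosomal genes. Capitals mark TCACGTGA, and each sequence reads 5′ to 3′ on the strand of the gene. They lie at chr16:45158747-45158774 on the plus strand (Atg3), chr8:105566051-105566078 on the minus strand (Atp6v0d1), chr17:26676388-26676415 on the plus strand (Atp6v0e), chr16:44139374-44139401 on the minus strand (Atp6v1a), chr2:164833750-164833777 on the plus strand (Ctsa, the first of 2 matches) and chr7:142387909-142387936 on the minus strand (Ctsd). The build is that of the RefSeq table and not the mm9 build of the TPM values, and only the gene symbol joins them.
Atg3: gagagtcgagTCACGTGAggccttaggt
Atp6v0d1: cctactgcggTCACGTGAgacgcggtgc
Atp6v0e: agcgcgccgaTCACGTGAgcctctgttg
Atp6v1a: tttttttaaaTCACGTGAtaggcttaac
Ctsa: gagcaaactgTCACGTGAtgcagatgct
Ctsd: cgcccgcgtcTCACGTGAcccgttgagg

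The Lamp1 window held 4 copies of the core word and none of the flanked one. The copy nearest the start is shown, at chr8:13159135-13159162 on the plus strand, with the core in capitals.
Lamp1: cgtgaccacatCACGTGcggaacggagc

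The 6 genes with the flanked word did not move as one between the genotypes. Their log2 fold changes were 0.43 for Atp6v0d1, 0.31 for Atp6v1a, 0.23 for Atg3, 0.06 for Atp6v0e, 0.02 for Ctsa and -0.05 for Ctsd, on both sides of the 0.18 of all genes. That of Lamp1 was 0.01. None passed the test.

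Of the initiation complex, Ulk1, the kinase that starts autophagy and is itself held back by mTORC1, was the most abundant member. It was at 46.81, 35.80 and 55.24 TPM in WT and at 56.89, 63.80 and 60.43 TPM in db/db. All db/db libraries lay above all WT libraries, though the nearest, at 55.24 and 56.89 TPM, were close. The test gave a log2 fold change of 0.41 (SE 0.30, 95% interval -0.21 to 1.02, limma adjusted p = 0.920), and the groups overlapped after median-of-ratios scaling or quantile normalization. Atg13 and Atg101, which bridge ULK1 to its scaffold, had log2 fold changes of -0.08 and -0.55. Atg101 was higher in db/db in experiment 1, by 0.52, and lower in experiments 2 and 3, by -0.91 and -1.26.

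Of the nucleation complex, Becn1, the Beclin 1 scaffold of the class III phosphatidylinositol 3-kinase, was at 25.80, 28.53 and 40.36 TPM in WT and at 27.13, 29.32 and 32.34 TPM in db/db. All db/db libraries were inside the WT range (log2 fold change -0.07, SE 0.33). Atg14, the subunit that directs this kinase to autophagy, was at 9.29, 7.40 and 12.15 TPM in WT and at 13.97, 22.98 and 12.23 TPM in db/db. The groups did not overlap, but the lowest db/db library, at 12.23 TPM, barely exceeded the highest WT library, at 12.15 TPM. Its log2 fold change was 0.69 (SE 0.41, limma adjusted p = 0.919), and the groups overlapped under both scalings.

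Genes of membrane supply were Atg2a and Atg2b, which code for lipid transfer proteins, and Atg9a, which codes for the lipid scramblase of the growing membrane. Atg2a led with 21.9 ± 7.96 TPM (SD, n = 3) in WT, against 30.5 ± 3.17 TPM in db/db, in libraries of 18.37, 16.24 and 30.96 TPM and of 27.73, 33.93 and 29.71 TPM. WT replicate 3 lay within the db/db range. Atg2b and Atg9a had log2 fold changes of 0.28 and 0.24. The paralogue Atg9b had a mean of 0.792 TPM and was not tested. In GENCODE M21 transcripts, 28.8% of the different 75-base words of Atg9a, the length of a read, also occur in other genes. Its level can thus depend on how such reads were assigned. Whether those genes were in the annotation behind the TPM values is not known.

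The conjugation machinery was low to moderate, with means over all libraries from 4.76 TPM (Atg4d) to 36.3 TPM (Atg7). Atg7 codes for the E1-like enzyme that activates both ATG8 proteins and ATG12. It was at 30.91, 23.74 and 44.24 TPM in WT and at 40.89, 35.12 and 42.88 TPM in db/db, with the WT libraries spread more widely than the db/db libraries and overlapping them (log2 fold change 0.30, SE 0.33). Of the 11 genes 0 passed, and 7 exceeded the all-gene median. The median of the group was 0.30, or 0.12 relative to all genes. This relative median ran from 0.015, with WT replicate 2 left out, to 0.51, with WT replicate 1 left out.

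Atg10 had the highest fold change of these genes. Atg10, the E2-like enzyme for ATG12, was at 7.37, 4.66 and 5.39 TPM in WT and at 15.70, 6.5 and 15.21 TPM in db/db. It was higher in db/db in each experiment, but db/db replicate 2 lay below WT replicate 1 (log2 fold change 0.92, SE 0.45, limma adjusted p = 0.919, unadjusted p = 0.0553, or 0.0438 with the experiment as a block). Atg5, the acceptor of ATG12, was at 7.92 ± 1.69 TPM in WT, against 13.3 ± 5.35 TPM in db/db (SD, n = 3 each), with a log2 fold change of 0.64 (SE 0.43). Its groups overlapped on the TPM scale and not after either scaling. Atg12 itself had a log2 fold change of -0.15, and the ATG8 E2-like gene Atg3 one of 0.23.

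The 4 genes of the ATG4 proteases, which trim ATG8 proteins and release them from membranes, were led by Atg4b. Of the 75-base words of Atg4a, 41.3% recur in the pseudogene Atg4a-ps, so its level is uncertain. Atg4b made up 57.1% ± 1.75 (SD, n = 3) of their summed TPM in WT and 49.3% ± 15.2 in db/db. Atg16l1, which places the conjugation enzymes on the membrane, made up 73.1% ± 3.16 of the Atg16l1 and Atg16l2 sum in WT and 61.8% ± 19.8 in db/db. The wide db/db spread came from db/db replicate 3, where Atg16l2 reached 13.99 TPM and the Atg16l1 share was 40.1%.

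ATG8 genes were the most abundant part of the autophagy machinery. Map1lc3b, which codes for LC3B, was the highest of all 72 members and stood at the percentile 97.7 of tested genes. It was at 346.04, 343.14 and 359.26 TPM in WT and at 393.72, 394.19 and 430.45 TPM in db/db. It was the least variable member across libraries, with a pooled coefficient of variation of 4.26% against a median of 28.0% over members. The db/db libraries lay above all WT libraries and the differences within experiments were 0.19, 0.20 and 0.26. Its log2 fold change of 0.22 (SE 0.22, 95% interval -0.24 to 0.67) was close to the 0.18 of all genes (limma adjusted p = 0.921). After median-of-ratios scaling it was 0.02 and the groups overlapped.

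Map1lc3a, which codes for LC3A, was at 11.33, 21.60 and 6.76 TPM in WT and at 2.01, 15.22 and 2.84 TPM in db/db. It was lower in db/db in each experiment, by -2.03, -0.48 and -1.01, but replicate 2 was the highest library of both groups and the groups overlapped. Its log2 fold change of -1.18 (SE 0.57) was the lowest of the 57 members and missed the threshold (limma adjusted p = 0.919). The unadjusted p was at the edge of 0.05. In limma it was 0.264 without db/db replicate 1, 0.00303 without db/db replicate 2 and 0.0191 with the experiment as a block. The fold change ran from -1.93 without db/db replicate 2 to -0.71 without db/db replicate 1. Map1lc3b made up between 94.1% and 99.5% of the summed LC3 TPM in each library, so the LC3 sum followed Map1lc3b, at 363 ± 4.67 TPM in WT, against 413 ± 19.0 TPM in db/db.

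Of the GABARAP genes, whose products act late in autophagosome closure and fusion, Gabarap itself led. It was at 270.22, 221.76 and 298.67 TPM in WT and at 284.19, 307.94 and 283.03 TPM in db/db, with db/db replicates 1 and 3 inside the WT range and db/db replicate 2 above it (log2 fold change 0.16, SE 0.23). Gabarapl1 and Gabarapl2 had log2 fold changes of -0.08 and -0.27. The 3 genes shared out their sum as 52.5%, 38.1% and 9.39% (Gabarap, Gabarapl1 and Gabarapl2) in WT, while the db/db shares were 57.3%, 35.4% and 7.30%. For each gene the shares of the groups overlapped, with SDs of 1.48 to 5.32 percentage points.

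Sqstm1, which codes for the cargo receptor p62, was at 57.21, 61.84 and 95.90 TPM in WT and at 94.25, 70.86 and 71.15 TPM in db/db. The order of the genotypes changed between experiments, with differences of 0.71, 0.19 and -0.43, and the log2 fold change was 0.16 (SE 0.29). The p62 protein is itself degraded by autophagy, and its transcript does not measure that turnover.

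**Figure D3:**
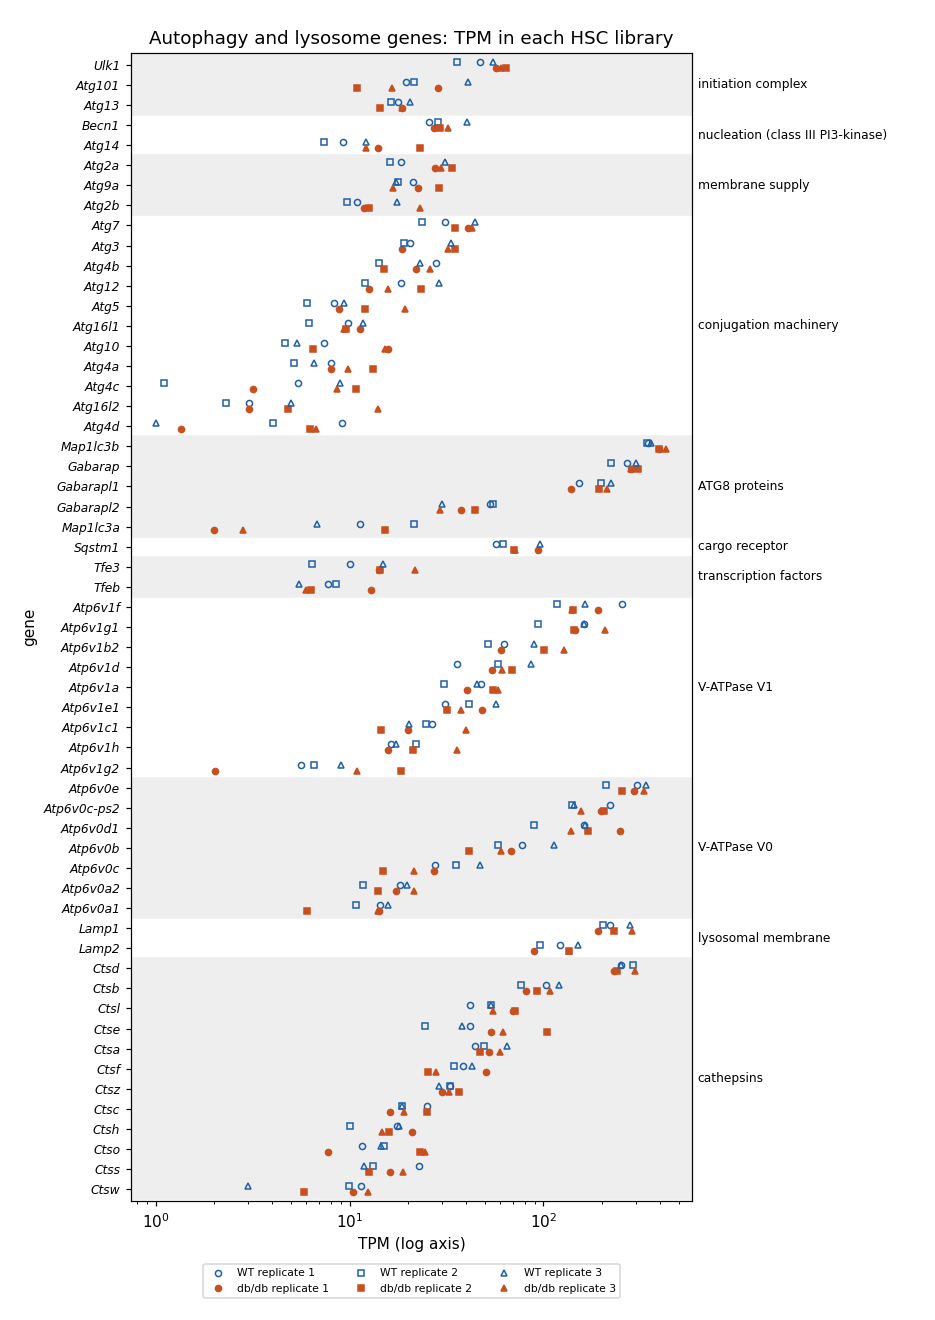
TPM on a log axis is plotted for each of the 57 tested members in each library, grouped by role, with open blue symbols for WT and filled orange symbols for db/db and the symbol shape giving the replicate. Map1lc3b is highest and tightly grouped, from 343.14 to 430.45 TPM, while the ATG4, ATG16L and transcription factor genes lie near or below 30 TPM with overlapping groups.

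The vacuolar ATPase is a rotary proton pump with a cytosolic V1 part that splits ATP and a V0 part in the membrane that carries protons. Several subunits are coded by paralogues of restricted tissue use, and these HSCs used the widely expressed forms. In V1, Atp6v1b2, Atp6v1c1 and Atp6v1e1 gave all of the TPM of subunits B, C and E, and Atp6v1b1, Atp6v1c2, Atp6v1e2 and Atp6v1g3 were listed at 0 in every library. Atp6v1g1 gave 94.9% ± 1.59 of the subunit G TPM in WT and 94.1% ± 5.07 in db/db (SD, n = 3 each). In V0, Atp6v0d1 gave at least 99.8% of subunit d, and the osteoclast form Atp6v0d2 reached at most 0.29 TPM. Atp6v0a4, the kidney form of subunit a, was listed at 0, and the rest was divided between Atp6v0a2 (54.5% ± 2.15 in WT and 61.8% ± 7.45 in db/db) and Atp6v0a1.

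Of 9 tested V1 genes 0 passed, and their log2 fold changes ran from -0.12 to 0.47 with a median of 0.15. Atp6v1f, the most abundant of them, was at 255.09, 117.03 and 163.11 TPM in WT and at 190.86, 141.76 and 139.58 TPM in db/db, all within the WT range. Levels per length differed widely inside the complex. The catalytic subunit gene Atp6v1a was at 41.2 ± 9.14 TPM in WT, against 51.1 ± 9.46 TPM in db/db, and its partner Atp6v1b2 at 67.9 ± 19.6 and 96.4 ± 33.6 TPM (SD, n = 3 each). Atp6v1b2 had the highest V1 fold change, 0.47 (SE 0.31), with db/db lower in experiment 1 and higher in experiments 2 and 3.

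Of the 7 tested V0 rows 0 passed, with log2 fold changes from -0.76 to 0.43 and a median of 0.06. Atp6v0e led at 304.24, 211.10 and 338.00 TPM in WT and 292.65, 254.14 and 330.14 TPM in db/db, within the WT range. Atp6v0b, which codes for one of the proton-carrying ring proteins, was at 83.1 ± 27.7 TPM in WT, against 56.7 ± 13.9 TPM in db/db (SD, n = 3 each) and was lower in db/db in each experiment, by -0.19, -0.49 and -0.89. The log2 fold change was -0.52 (SE 0.31, limma adjusted p = 0.919, unadjusted p = 0.108, or 0.0232 after median-of-ratios scaling).

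Atp6v0c, which codes for the main ring protein, was the 1 member with all db/db libraries below all WT libraries, but part of its reads cannot be told apart from those of a copy. It was at 27.46, 35.52 and 46.84 TPM in WT and at 27.28, 14.86 and 21.60 TPM in db/db, so the nearest libraries were 27.46 and 27.28 TPM, both of experiment 1. The log2 fold change was -0.76 (SE 0.35, limma adjusted p = 0.919). The unadjusted p of 0.0409 was 0.171 without db/db replicate 2 and 0.149 without WT replicate 3. In limma it was 0.0216 without db/db replicate 1 and 0.011 after median-of-ratios scaling or quantile normalization. The groups did not overlap under either scaling. Atp6v0c-ps2, a copy named as a pseudogene, was listed far higher, at 219.41, 140.90 and 144.51 TPM in WT and 197.98, 204.49 and 155.25 TPM in db/db. In GENCODE M21 transcripts, 80.8% of the different 75-base words of Atp6v0c-ps2 also occur in other genes, chiefly Atp6v0c, as do 9.24% of those of Atp6v0c. RSEM divides such reads by an estimate. The sum of both symbols was 205 ± 37.1 TPM in WT, against 207 ± 26.4 TPM in db/db (SD, n = 3 each), with a log2 fold change of 0.02 (SE 0.25, 95% interval -0.49 to 0.53, limma adjusted p = 0.995) and overlapping groups.

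LAMP1 and LAMP2 are the main glycoproteins of the lysosomal membrane, and LAMP2 also takes part in fusion and in chaperone-mediated autophagy. Lamp1 was at 220.30, 202.70 and 279.60 TPM in WT and at 192.19, 230.66 and 285.94 TPM in db/db. Lamp2 was at 121.45, 95.48 and 151.27 TPM in WT and at 89.66, 134.93 and 134.73 TPM in db/db. The means of each were nearly equal, with log2 fold changes of 0.01 (SE 0.25, 95% interval -0.51 to 0.52) and -0.03 (SE 0.28, -0.61 to 0.54). Relative to the shift of all genes, Lamp1 lay lower, at -0.19 after median-of-ratios scaling, where its groups did not overlap, and at -0.10 after quantile normalization, where they did. Lamp1 made up 65.8% ± 1.92 of the LAMP sum in WT and 66.4% ± 2.88 in db/db, and Lamp3, the dendritic cell form, and Lamp5 were listed at 0 in every library.

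Of the 17 cathepsin rows 12 were tested and 5 were listed at 0 everywhere, namely Ctsk, the osteoclast collagenase, and Ctsj, Ctsm, Ctsq and Ctsr, which belong to a placental group. Ctsd, the aspartic protease of lysosomes, led at 251.56, 288.23 and 250.61 TPM in WT and 230.88, 240.54 and 295.24 TPM in db/db, and made up 40.9% ± 4.47 and 36.9% ± 3.18 of the summed cathepsin TPM. The cysteine protease gene Ctsb followed at 100 ± 22.1 TPM in WT, against 94.2 ± 13.3 TPM in db/db (SD, n = 3 each). The log2 fold changes of Ctsd and Ctsb were -0.05 (SE 0.23) and -0.07 (SE 0.28). After median-of-ratios scaling that of Ctsb was -0.26 and its groups did not overlap, with db/db lower. After quantile normalization the Ctsb groups overlapped. In GENCODE M21, 31.3% of the 75-base words of Ctsd recur in transcripts of another gene model.

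Ctse, which codes for cathepsin E, an aspartic protease of endosomes found in blood and gastric cells, had the highest fold change of the members. It was at 41.87, 24.40 and 38.18 TPM in WT and at 53.82, 104.84 and 61.60 TPM in db/db. The groups did not overlap, and db/db was higher by 0.35, 2.06 and 0.68 on the log2 scale in experiments 1, 2 and 3, with both the lowest WT and the highest db/db library in experiment 2. The log2 fold change was 1.03 (SE 0.33, 95% interval 0.34 to 1.72). The adjusted p in limma was 0.607 and the unadjusted p 0.00506, or 0.0567 without db/db replicate 2. Over 15 alternatives the fold change ran from 0.75 to 1.22 and the adjusted p from 0.458 to 1, and the groups did not overlap under either scaling. Ctse made up 5.38% ± 1.34 of the cathepsin TPM in WT and 10.6% ± 3.76 in db/db.

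Markers of red cell precursors, in which Ctse is also known to be expressed, stood beside this difference. The summed level of 9 erythroid genes was 84.7 to 198 TPM in WT, against 316 to 1404 TPM in db/db, where most came from the globin gene Hbb-b2. Hbb-b2 itself passed the test, with a log2 fold change of 2.93 (limma adjusted p = 0.000688). After median-of-ratios scaling its limma adjusted p was 0.36, and its groups did not overlap under either scaling. The other 8 genes summed to 74.3, 119 and 29.7 TPM in WT, while db/db had 55.5, 309 and 60.6 TPM, so without Hbb-b2 the groups overlapped. Of these 8, Klf1, an erythroid transcription factor gene, had groups that did not overlap on the TPM scale, with db/db higher. Under both scalings the Klf1 groups overlapped. Those of Hba-a1, Hbb-b1, Epor and Car1 overlapped on the TPM scale. Hba-a2 was listed at 0 everywhere, and defining genes of maturing red cells were low, with at most 0.45 TPM for Alas2 and 0.6 TPM for Slc4a1. Hbb-b2 was highest in db/db replicate 1, at 1348 TPM, where Ctse was lowest of the db/db libraries. Car1, a carbonic anhydrase of early red cells, was highest in db/db replicate 2, at 212 TPM, where Ctse was highest too. Within WT the reverse held. Car1 was highest in WT replicate 2, at 59.1 TPM, where Ctse was lowest. Hbb-b2 was highest in WT replicate 1, at 89.3 TPM, where Ctse was highest of the WT libraries. Red cells had been lysed and the lineage gate held an erythroid antibody, per the labels. The part of other cells in the Ctse difference was not tested.

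Ctsl, a cysteine protease gene, was at 41.65, 53.52 and 53.77 TPM in WT and at 69.80, 71.59 and 55.11 TPM in db/db. The groups did not overlap on the TPM scale and overlapped under both scalings (log2 fold change 0.39, SE 0.29, limma adjusted p = 0.920). Cathepsins of leukocytes were lower, with Ctss, of antigen-presenting cells, at 22.70, 13.22 and 11.90 TPM in WT and 16.12, 12.65 and 18.89 TPM in db/db. Its highest library was WT replicate 1, which also had the highest granulocyte markers. Within db/db, however, Ctss was highest in replicate 3, where those markers were lowest. It was lowest in db/db replicate 2, where the summed monocyte and macrophage markers were highest, mostly from Ly6c2 at 68.62 TPM. Within db/db, Itgam, Vcam1 and Spic of that list were also highest in replicate 2. C1qb and C1qc were lowest there, at 4.24 and 1.07 TPM, and Csf1r was highest in replicate 3. The part of other cells was not tested. Ctsc, the activator of granule serine proteases, had a log2 fold change of -0.05, Ctsw of cytotoxic lymphocytes one of 0.31, and Ctsa, Ctsz, Ctsh, Ctso and Ctsf ranged from -0.21 to 0.26.

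Genes of the pathway outside the rule were taken from 4 further lists, and 0 of their 139 tested genes passed in limma. Of 35 tested autophagy genes, an unadjusted p under 0.05 was reached by 2 in the higher and 1 in the lower direction (5.71% and 2.86%, beside 4.1% and 1.25% of all tested genes), and the median relative to all genes was 0.03. The groups did not overlap for 6 of the 35 with db/db higher and 1 with db/db lower, beside 7.85% and 2.32% of all tested genes. Rab7, the small GTPase of lysosome fusion, was at 221.10, 224.85 and 316.48 TPM in WT and at 280.55, 428.76 and 474.82 TPM in db/db, with WT replicate 3 above db/db replicate 1 (log2 fold change 0.62, SE 0.25, limma adjusted p = 0.894). Wdr45b, a WIPI-family protein gene of the early membrane, was at 22.4 ± 11.4 and 42.0 ± 8.34 TPM and Trp53inp2, an ATG8-binding protein gene, at 4.70 ± 1.71 and 1.69 ± 1.18 TPM (SD, n = 3 each). The groups did not overlap for these on the TPM scale, and neither passed. For Wdr45b they overlapped under both scalings. Uvrag, a Beclin 1 partner gene, was at 18.5 ± 1.90 and 28.2 ± 5.89 TPM, with groups apart on the TPM scale and under both scalings. Vamp8, a fusion SNARE gene and the most abundant of the list, was at 812 ± 85.5 and 769 ± 179 TPM.

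Of 39 tested hydrolase and cofactor genes, an unadjusted p under 0.05 was reached by 1 higher and 1 lower gene, or 2.56% in each direction, beside 4.1% higher and 1.25% lower among all tested genes. The groups did not overlap for 6 of the 39 with db/db higher and 2 with db/db lower, beside 7.85% and 2.32% of all tested genes. Hexa, the alpha subunit of beta-hexosaminidase, which cleaves GM2 ganglioside, was at 93.97, 72.66 and 65.22 TPM in WT and at 41.74, 38.34 and 44.93 TPM in db/db. Gm2a, the activator protein that presents GM2 to this enzyme, was at 72.68, 54.75 and 67.81 TPM in WT and at 102.76, 114.74 and 116.73 TPM in db/db. In both genes the groups did not overlap, in opposite directions, and the same held under both scalings. The limma fit gave log2 fold changes of -0.86 (SE 0.29) for Hexa and 0.77 (SE 0.27) for Gm2a, with limma adjusted p of 0.692 and 0.754. Psap, the saposin precursor gene and most abundant of the list, was at 229 ± 48.6 and 222 ± 16.0 TPM (SD, n = 3 each), while Acp5 and Galc had log2 fold changes of -0.96 and 0.68.

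**Figure D4:**
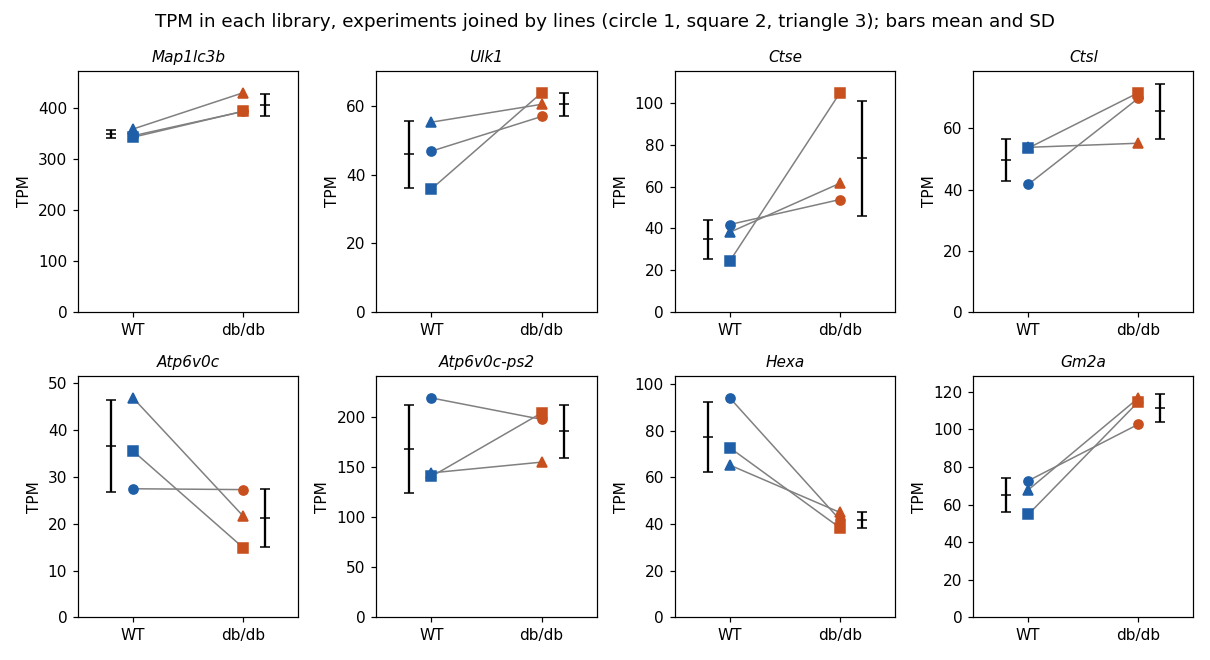
TPM in each library (vertical axis, from 0) is shown for 8 genes in WT and db/db, with lines joining the libraries of an experiment and bars for the mean and SD of 3 libraries. Ctse and Gm2a lie higher and Hexa lower in all db/db libraries, while Atp6v0c is lower in db/db in experiments 2 and 3, nearly equal in experiment 1, and its copy Atp6v0c-ps2 overlaps between the groups.

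Of 30 further genes of the lysosomal membrane, 2 had an unadjusted p under 0.05, both with db/db higher, which is 6.67%, beside 4.1% of all tested genes in that direction. The groups did not overlap for 3 of the 30 with db/db higher and 1 with db/db lower, beside 7.85% and 2.32% of all tested genes. Tpcn1, a cation channel gene of endolysosomes, was at 22.79, 20.90 and 27.28 TPM in WT and 34.52, 45.06 and 41.45 TPM in db/db, with the groups apart (log2 fold change 0.75, SE 0.32, limma adjusted p = 0.899). Laptm4b, a lysosomal transmembrane protein gene, was at 24.6 ± 8.43 and 41.9 ± 10.6 TPM (SD, n = 3 each). Clcn7, the chloride-proton exchanger gene, had a log2 fold change of -0.75, and Scarb2, the receptor that carries beta-glucocerebrosidase, one of 0.67. For Tpcn1, Laptm4b and Clcn7 the groups did not overlap on the TPM scale or under either scaling. Those of Scarb2 overlapped. Laptm5, the most abundant, was at 662 ± 61.0 and 719 ± 28.9 TPM. Of 35 genes for lysosomal biogenesis and mTORC1 control, 0 had an unadjusted p under 0.05. Their groups did not overlap for 2 with db/db higher and 1 with db/db lower. The genes of smallest p were Zkscan3, a repressor of autophagy genes, Gnptab, which makes the mannose 6-phosphate tag, the AMPK subunit gene Prkag1 and the Ragulator gene Lamtor2, with log2 fold changes of 0.84, 0.56, 0.50 and -0.45. Groups were apart for Gnptab and Prkag1, and under both scalings for Gnptab only. Cst3, the cathepsin inhibitor cystatin C and most abundant of the list, was at 569 ± 69.0 and 499 ± 43.2 TPM (SD, n = 3 each).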

How the data were processed

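RNA sequencing values of 6 HSC libraries, 3 WT and 3 db/db, were analysed. The authors deposited TPM per gene symbol, made with RSEM and Bowtie2 on mm9 (per the submitters' processing notes). The annotation and tool versions are not given in the sources used here. RSEM divides reads shared by near-identical genes, and TPM of a gene depends on all others in its library. Nothing shows that libraries come from separate mice beyond the labelled experiments, so p-values measure the spread between these libraries.

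Genotypes were compared on log2(TPM + 1) by limma 3.58.1 (R 4.3.3). The fit took every gene whose mean reached 1 TPM and had a single genotype term, a trended empirical Bayes prior (17.7 prior and 4 residual degrees of freedom), two-sided tests and Benjamini-Hochberg adjustment over all 11931 genes. Fold changes on this scale understate those of low genes. The fit was tested on simulated data. Libraries were given for members with an unadjusted p under 0.05 or groups without overlap, for the most abundant member of each role and for Ulk1, Becn1, Sqstm1, Map1lc3b, Gabarap, Tfeb, Tfe3, Lamp1 and Lamp2, and from each further list up to 4 genes of smallest p and the most abundant. Libraries of Atg10, Ctss and Atp6v0c-ps2, and remarks on Atg5, Atg101, Atg16l2, Atp6v0b and Atp6v1b2 beyond that rule, were chosen after the values were seen. Members, roles and lists were chosen with earlier results of these data known.

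The labels give each experiment number to 1 library of each genotype, which pairs them. Deviations from the group means correlated across genes at 0.04, 0.012 and 0.162 within experiments 1, 2 and 3. Between WT and db/db libraries of different experiments they correlated at -0.117 to 0.081. The main fit did not use the pairing. Of the marker lists, lymphocyte genes summed to 90.9 to 165 TPM in WT and 165 to 255 in db/db, with 5 of 11 at 0 everywhere (Cd3e, Cd3g, Ms4a1, Il7r and Rag1). Most of the lymphocyte sum was Nkg7, at 50.74 to 114.81 TPM in WT and 124.68 to 200.12 TPM in db/db. Groups overlapped for Cd79b, at 32.72 to 60.92 and 28.76 to 59.89 TPM, and for Ccl5, at 4.93 to 7.61 and 0.62 to 11.63 TPM. The 13 monocyte and macrophage genes summed to 11.8 to 79.2 and 49.7 to 122 TPM, 7 osteoclast genes to 35.1 to 57.8 and 66.5 to 79.4 TPM, and 6 mast cell genes to 0.67 to 2.93 and 5.01 to 14.95 TPM. Most of the osteoclast sum was Nfatc1, at 29.77 to 49.87 TPM in WT and 63.35 to 73.19 TPM in db/db. Acp5 went the other way, at 3.80 to 7.03 and 0.77 to 3.70 TPM, and Ocstamp, Calcr and Oscar were at 0 everywhere. The mast cell sum in db/db was Cpa3 alone, and Mcpt8, Prss34, Cma1 and Tpsb2 were at 0 everywhere. One gene of the erythroid list is not reported here and was left out of its sum. The fit was repeated with a pseudocount of 0.1 or 0.5, without the filter or with one at 5 TPM, after median-of-ratios scaling or quantile normalization, without the trend, with the experiment as a replicate block, and with each library left out. The sum of Atp6v0c and Atp6v0c-ps2 as 1 row was added after seeing the data. Identical 75-base words were searched in GENCODE M21 transcripts.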

Additional observations from a re-analysis of the deposited data

How the results depend on the processing

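No member passed at an adjusted p under 0.05 in limma under any of the 15 alternatives run, and none of the 39 genes whose values were followed through them passed in any of 583 values. The count over all genes was 4 as reported, 0 without a filter or without the trend, 1 after median-of-ratios scaling or quantile normalization, and 0 to 16 with 1 library left out (0 without db/db replicate 2 and 16 without WT replicate 1). At an unadjusted p under 0.05, genes higher and lower numbered 489 and 149 as reported, 297 and 355 after median-of-ratios scaling, and 304 and 383 after quantile normalization. With 1 library left out, they ran from 264 to 936 higher (most without WT replicate 3) and from 113 to 224 lower (most without db/db replicate 1). Members higher numbered 1 as reported, 2 with the experiment as a replicate block (Ctse and Atg10), 2 without the trend, and 1 to 3 with a library left out (3 without WT replicate 3). Members lower numbered 2 as reported, and 1 without a filter, at a mean of at least 5 TPM or with the Atp6v0c sum. They numbered 3 after median-of-ratios scaling and 3 after quantile normalization, or 5.26% each, beside 2.98% and 3.21% of all genes. Without the trend they numbered 0, and with a library left out 0 or 1. With the block, 6 of all genes and 0 members passed at an adjusted p under 0.05. Members whose groups did not overlap numbered 5 higher and 1 lower. After median-of-ratios scaling they were 2 and 3, beside 5.67% and 4.75% of all genes. After quantile normalization they were 3 and 1, or 5.26% and 1.75%, beside 5.57% and 4.97% of all genes. With the Atp6v0c sum 0 were lower, and with a library left out there were 5 to 13 higher and 1 to 3 lower. The 13, without WT replicate 3, are 22.8% of the members, beside 24.0% of all genes in that comparison, and over all left-out libraries the share of all genes was 10.1% to 24.6% higher and 4.11% to 6.4% lower.

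Relative to all genes, the members' median of -0.028 was 0.023 without a filter and ran from -0.16 (without db/db replicate 1) to 0.014 (without WT replicate 1) with a library left out. Over the same left-out libraries, the relative median of membrane supply genes, 0.10 with all libraries, ran from 0.13 to 0.34 (without db/db replicate 3). That of conjugation genes, 0.12, ran from 0.015 (without WT replicate 2) to 0.51 (without WT replicate 1). That of V0 genes, -0.12, ran from -0.25 (without db/db replicate 1) to -0.038, and that of cathepsins, -0.14, from -0.27 (without WT replicate 3) to -0.041. Among the further lists, that of autophagy genes, 0.032, ran from -0.061 (without WT replicate 2) to 0.042, and that of hydrolases, 0.015, from -0.096 (without db/db replicate 2) to 0.11 (without db/db replicate 3). The causes were not tested. TPM carries no depth, so counting error is unknown.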
